A study of Homo sapiens with 6 samples.

Results

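The genes described here are 10 that write, keep or remove DNA methylation, together with the partners that open chromatin for the maintenance enzyme: *CDCA7*, *CDCA7L*, *HELLS*, *UHRF1*, *DNMT1*, *DNMT3A*, *DNMT3B*, *TET1*, *TET2* and *TET3*. They were chosen by gene symbol for their role, with the KO against WT FPKM values of these same libraries already known. Their KO to WT differences are therefore given as a description, without a test. All 10 were listed among the 21475 genes measured, and 9 of them were among the 12241 genes whose average over the 6 libraries reached 0.5 FPKM (fragments per kilobase of transcript, scaled to the mapped fragments of a library). Each of these 9 also had a mean above that limit in each group, and the remaining gene, *TET1*, is given by its values alone.

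RNA-seq was performed on 3 WT and 3 *FGFR2* KO lines of HaCaT cells, a spontaneously immortalized line of human keratinocytes, with 1 poly(A)-selected library per line. The KO lines carry disruptions of *FGFR2*, a fibroblast growth factor receptor of epithelial cells, made with CRISPR/Cas9 directed at exon 7, and each line was expanded from a single sorted cell. Both groups grew in the same serum-containing medium. A KO line is thus 1 clone, so that a property of a clone and an effect of the receptor's loss cannot be told apart within a line. The WT lines of the study comprised expanded clones as well as the uncloned starting population, and the labels do not say which of them were sequenced. The paper's legend for FGF receptor levels in HaCaT cells, taken from these data, describes the lines as clonally expanded. By that legend the WT libraries come from clones as well, although it does not name the lines. In these bulk cultures, fewer cells in a phase of the cell cycle and less RNA per cell cannot be told apart either.

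DNA methylation in mammals sits mostly on cytosines followed by guanine. After replication the new strand lacks the mark. UHRF1 recognizes such hemimethylated sites and recruits DNMT1, which copies the mark onto the new strand, while the nucleosome remodeler HELLS, activated by its zinc finger partner CDCA7, gives access to DNA wrapped in nucleosomes. DNMT3A and DNMT3B place new methylation, and TET1, TET2 and TET3 oxidize the mark as a first step of its removal. Germline mutations in *CDCA7*, *HELLS*, *DNMT3B* or *ZBTB24* cause the immunodeficiency, centromeric instability and facial anomalies (ICF) syndrome, in which satellite repeats beside centromeres lose methylation.

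Many genes of DNA replication carry binding words of the E2F family, the transcription factors that act at entry into S phase. The promoter windows of the 10 genes, from 250 bases before to 50 bases after each annotated start in RefSeq (GRCh38.p14), were searched on both strands for 4 such words, TTTGGCGC, TTTCCCGC, TTTCGCGC and TTTGCCGC. The words do not overlap one another in these windows. All 10 symbols matched, with 21 windows in all, and *CDCA7*, *HELLS*, *UHRF1* and *DNMT1* held 1 or more of the words. The 6 places are shown because they belong to 4 of the 5 genes that were higher in every KO line. Each is written in the direction of its gene with the word, or its reverse complement, in capitals.
CDCA7, chr2:173354796-173354825, plus strand: tgtgtcccaacGCGGGAAAgacagcccgag
HELLS, chr10:94545701-94545730, plus strand: aaccgcaagctGCGCCAAAtctcgcgcagc
HELLS, chr10:94545769-94545798, plus strand: gatgacaggatTTTCCCGCgaaggagaagc
UHRF1, chr19:4909476-4909505, plus strand: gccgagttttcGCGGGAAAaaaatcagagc
UHRF1, chr19:4909973-4910002, plus strand: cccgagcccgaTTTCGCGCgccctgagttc
DNMT1, chr19:10194937-10194966, minus strand: catcggtttccGCGCGAAAagccggggcgc

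Counted from 0 at the annotated start, the *CDCA7* word covered bases -65 to -58 and lay outside the exons of all 14 GENCODE transcripts of the gene. The *HELLS* words covered bases -76 to -69 and -8 to -1, and lay in an exon of 1 and of 2 of its 21 transcripts, which start further upstream. In *UHRF1* the word of the first window lay at -14 to -7 and in an exon of 1 of 8 transcripts, and that of the second at -160 to -153 and in no exon. The *DNMT1* word crossed the start, from -2 to 5, and lay in an exon of 12 of 52 transcripts. Of all 27305 genes with such windows 3.99% held a word, and of the tested genes with a window, 6.89% of 9809. Among the S phase genes listed below, 16 of the 28 with a window (57.1%) held a word, as did 3 of 20 genes of G2 and mitosis (15.0%). The windows of *CDCA7L*, *DNMT3A*, *DNMT3B* and the TET genes held none of these letters. The E-box CACGTG, which reads the same on both strands and is bound by MYC and related factors, stood in windows of *DNMT3A*, *TET2* and *TET3*, against 8.77% of all genes, 12.5% of tested genes, 21.4% of the S phase genes and 20% of the genes of G2 and mitosis. Its 2 matches in *DNMT3A* are 1 place seen in overlapping windows, chr2:25252385-25252390. The share of CpG against that expected from the base composition was 0.12 in the *DNMT3B* window and lay between 0.31 (*TET1*) and 1.07 (*UHRF1*) in the others. Its median was 0.71 over the windows of the 10 genes, against 0.58 over all windows of the genome. Over the windows of tested genes the median was 0.82, and over those of the S phase genes 0.91. The only *DNMT3B* window lay inside the gene, at chr20:32779602-32779901, while the gene begins at base 32762385 in GENCODE. All windows of *HELLS*, *UHRF1* and *DNMT1* lay inside their genes as well. In GENCODE these begin at bases 94545329, 4903080 and, on the minus strand, 10231286. Neither the word search nor this share therefore covers the upstream ends of *DNMT3B*, *HELLS*, *UHRF1* and *DNMT1*. These matches describe the letters only, and binding was not measured.

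**Figure D1:**
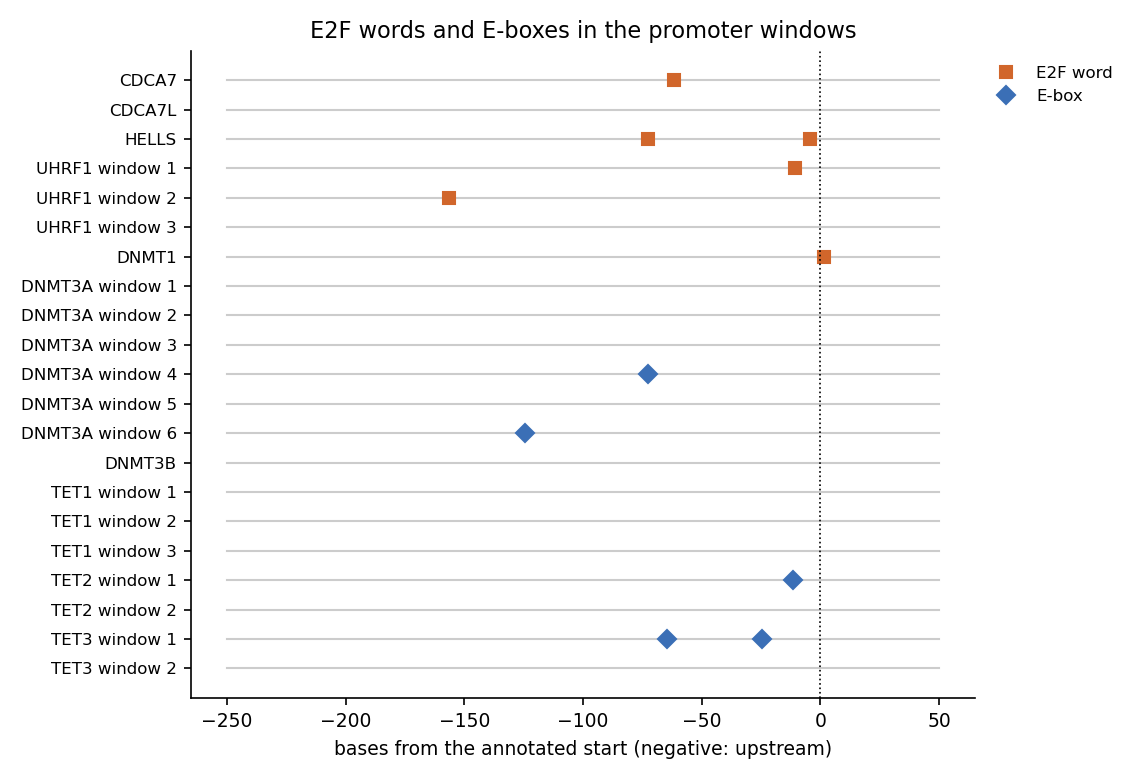
Places of E2F words (squares) and E-boxes (diamonds) in each RefSeq promoter window of the 10 genes, in bases from the annotated start (x axis, negative upstream). E2F words lie in 5 of the 21 windows, those of CDCA7, HELLS, UHRF1 (windows 1 and 2) and DNMT1, and E-boxes lie in windows of DNMT3A, TET2 and TET3.

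The libraries held an estimated 67700000 to 87900000 fragments. *FGFR2*, the targeted gene, was at 21.6, 39.7 and 15.0 FPKM in the WT lines, listed here and below as replicates 1, 2 and 3, while the KO lines had 3.04, 2.26 and 4.31 FPKM, or 12.6% of the WT mean. All 10 keratinocyte markers tested were expressed, with summed levels of 12656.1 to 23443.3 FPKM in WT and 18562.4 to 35765.3 FPKM in KO, and none of them separated the groups. WT replicate 2 stood apart in *DCN*, a fibroblast proteoglycan, with 15.5 FPKM against 0.0268 to 1.66 FPKM in the other libraries. It also stood apart in *CDH5*, the endothelial cadherin, with 4.92 FPKM against at most 0.128 FPKM. The other fibroblast and endothelial markers were mixed. *COL1A1* was at 16.7 FPKM there and 15.0 FPKM in WT replicate 1, and *VWF* at 19.2 FPKM there and 27.1 FPKM in WT replicate 3. *KDR* was at 0 in all libraries. WT replicate 2 was also highest in the leukocyte marker *CD68*, with 20.4 FPKM against at most 11.6 FPKM. The same held for the melanocyte marker *PMEL*, with 2.43 FPKM against at most 1.07 FPKM. It was not highest in *PTPRC* or *MITF*, other markers of these cell types. Mitochondrial genes took 21.5 to 27.6% of the summed FPKM in WT and 11.9 to 23.7% in KO. Tested with limma over all 12241 genes, 0 genes (0% of those tested) passed an adjusted p of 0.05 and differed by 0.5 or more in log2. *FGFR2*, with a log2 difference of -2.73 (SE 0.36), did not pass either, so a gene that fails this test may still differ. The smallest adjusted p was 0.261, while 2065 genes had an unadjusted p under 0.05 and 1536 of them, 1251 higher and 285 lower in KO, also passed the fold limit. With the libraries weighted by their estimated variance, limma instead called 1396 genes, with WT replicate 1 given a weight of 10.3 and each other library at most 1.49. The paper, which used DESeq2, a model of counts, did report differentially expressed genes between KO and WT lines.

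Of the 9 genes of DNA methylation that were tested, *CDCA7*, *CDCA7L*, *HELLS*, *UHRF1* and *DNMT1* were higher in each KO line than in every WT line. *TET2* and *TET3* were lower in each KO line than in every WT line, and the groups overlapped for *DNMT3A* and *DNMT3B*. Over all 12241 genes, 18.3% lay wholly above and 5.77% wholly below WT. Since the genes were chosen with this contrast known, nothing is read from these counts.

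*CDCA7* (ENSG00000144354), the activator of HELLS, had 4.21, 3.62 and 5.26 FPKM in the WT lines. It had 13.4, 9 and 21.9 FPKM in the KO lines. The lowest KO line was above the highest WT line, and the KO lines differed more among themselves than the WT lines did. The mean went from 4.36 ± 0.833 FPKM in WT to 14.8 ± 6.56 FPKM in KO (SD, n = 3 each), a ratio of 3.39. On the log2(FPKM + 0.5) scale, on which all fold changes are given, the difference was 1.58 (SE 0.31). Of all tested genes, 30 (0.245%) had a difference at least as high, *CDCA7* included. Leaving out any 1 library gave 1.26 to 1.87, the lowest without KO replicate 3.

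*CDCA7L* (ENSG00000164649), the paralog of *CDCA7* that shares its zinc finger domain and was first described as a MYC-interacting protein, had 26.3, 14.1 and 41.3 FPKM in WT. The KO lines had 59.9, 48.1 and 101.4 FPKM. All KO lines were above all WT lines, although the WT lines alone spanned a ratio of 2.93 between highest and lowest. The means were 27.2 ± 13.6 and 69.8 ± 28.0 FPKM, a ratio of 2.56 and a log2 difference of 1.4 (SE 0.41). Without WT replicate 2, the lowest library, the difference was 1.0.

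*HELLS* (ENSG00000119969), the SNF2 family ATPase of the pair, had 15.2, 11.5 and 14.6 FPKM in WT. It had 19.9, 20.5 and 32.8 FPKM in KO, where replicate 3 stood above the other two. The groups did not overlap, and the means of 13.8 ± 1.99 and 24.4 ± 7.30 FPKM gave a ratio of 1.77 and a log2 difference of 0.77 (SE 0.22). It was 0.54 without KO replicate 3. *HELLS* lies on chromosome 10 with *FGFR2*. For the 463 tested genes of that chromosome, the median deviation from the WT mean was taken, less that of all tested genes. It was -0.43 in KO replicate 1, -0.16 in replicate 2 and -0.19 in replicate 3, against -0.16 to 0.14 in WT. After each library was centred chromosome by chromosome on its median, the *HELLS* difference was 0.92.

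*UHRF1* (ENSG00000276043), the reader of hemimethylated DNA, had 17.3, 9.20 and 21.7 FPKM in WT. In the KO lines it had 30.6, 26.7 and 47.4 FPKM. WT replicate 2 was the lowest library and KO replicate 3 the highest, as for *CDCA7* and *CDCA7L*, and no KO line reached down to the WT range. The means were 16.1 ± 6.36 and 34.9 ± 11 FPKM, a ratio of 2.17 and a log2 difference of 1.13 (SE 0.34), or 0.79 without WT replicate 2. *UHRF2*, the paralog that binds the same mark without replacing UHRF1 in maintenance, overlapped between the groups, at 7.87 ± 0.528 (WT) and 9.28 ± 1.62 FPKM (KO). The ratio of *UHRF1* to *UHRF2* was 2.14, 1.11 and 2.99 in WT and 3.51, 3.34 and 4.27 in KO, with no overlap.

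*DNMT1* (ENSG00000130816), the maintenance methyltransferase, had 48.2, 28.5 and 59.0 FPKM in WT. It had 69.6, 80.2 and 101.1 FPKM in KO. Again the groups did not overlap, and the nearest lines, WT replicate 3 and KO replicate 1, were closer to each other than WT replicates 2 and 3 were. The means were 45.2 ± 15.4 and 83.6 ± 16.0 FPKM, a ratio of 1.85 and a log2 difference of 0.92 (SE 0.28), which was 0.63 without WT replicate 2.

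**Figure D2:**
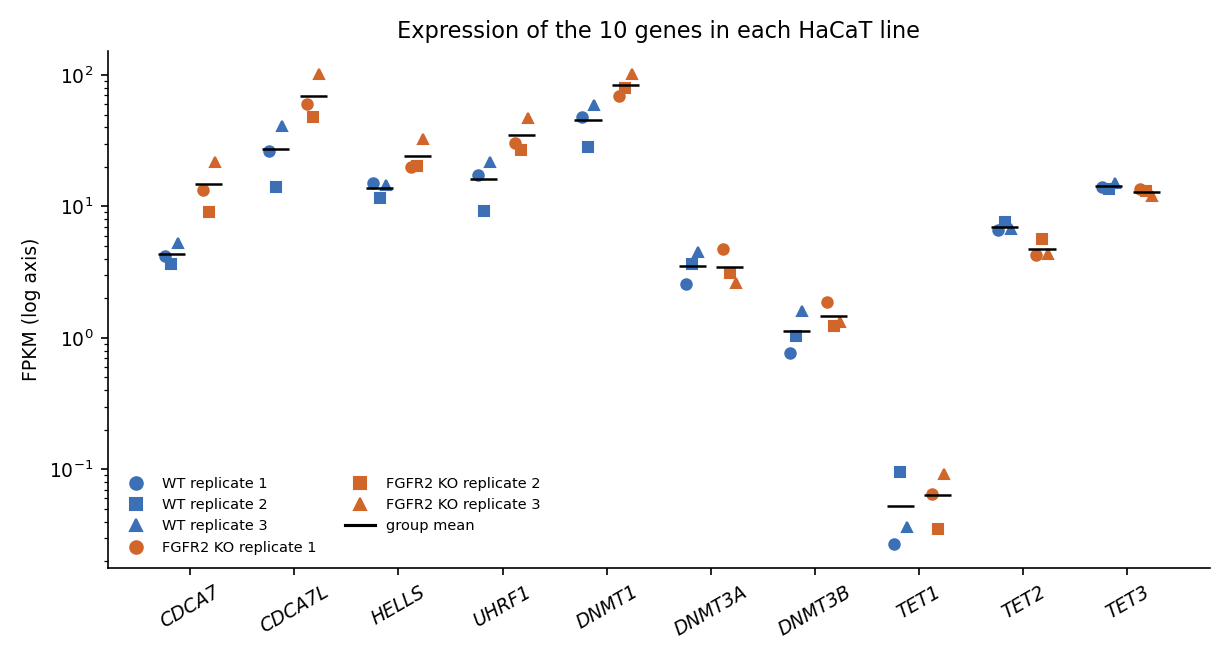
FPKM of the 10 genes in each WT and FGFR2 KO line (points, log axis), with the mean of each group as a line. CDCA7, CDCA7L, HELLS, UHRF1 and DNMT1 are higher in all 3 KO lines, TET2 is lower in all 3, and DNMT3A and DNMT3B overlap, with CDCA7 going from 3.62 to 5.26 FPKM in WT to 9 to 21.9 FPKM in KO.

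The de novo methyltransferases were less abundant and did not separate the groups. *DNMT3A* (ENSG00000119772) had 2.55, 3.62 and 4.49 FPKM in WT and 4.72, 3.12 and 2.60 FPKM in KO, so that the KO lines covered nearly the whole WT range. Its log2 difference was -0.03 (SE 0.27), and it took either sign when single libraries were left out, from -0.25 without KO replicate 1 to 0.13 without WT replicate 3. *DNMT3B* (ENSG00000088305) had 0.763, 1.03 and 1.61 FPKM in WT and 1.86, 1.24 and 1.33 FPKM in KO, a log2 difference of 0.30 (SE 0.27), which was 0.13 without WT replicate 1 and 0.50 without WT replicate 3. The pair varied together, and the ratio of *DNMT3A* to *DNMT3B* was 3.34, 3.52 and 2.79 in WT and 2.53, 2.52 and 1.95 in KO. These ratios did not overlap although neither gene alone separated the groups. *DNMT3L*, the catalytically inactive cofactor of germ cells, was listed at 0 in all 6 libraries.

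Among the TET dioxygenases, *TET2* (ENSG00000168769) had 6.64, 7.56 and 6.79 FPKM in WT and 4.31, 5.65 and 4.35 FPKM in KO. The highest KO line lay below the lowest WT line. The KO mean of 4.77 ± 0.761 FPKM was 68.2% of the WT mean of 6.99 ± 0.496 FPKM, a log2 difference of -0.51 (SE 0.17), and 5.70% of tested genes had a difference at least as low. *TET3* (ENSG00000187605) was the steadiest of the genes, with 14.0, 13.6 and 15.1 FPKM in WT and 13.6, 13.1 and 12.1 FPKM in KO. Its log2 difference was -0.13 (SE 0.13), WT replicate 2 and KO replicate 1 differed only beyond the printed digits, and the groups overlapped once the values were rescaled to TPM or to nuclear genes. *TET1* (ENSG00000138336) stayed between 0.0269 and 0.0951 FPKM in all libraries, with overlapping groups. The ratio of *TET2* to *TET3* was 0.473, 0.555 and 0.449 in WT and 0.317, 0.430 and 0.360 in KO, without overlap, and that of *TET2* to *DNMT1* in KO was 0.339 of its WT mean.

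Per length, as FPKM allows, *DNMT1* had the highest level of the 10 genes in 5 libraries and *CDCA7L* in KO replicate 3. *DNMT3B* and *TET1* were the 9th and the 10th in every library. *UHRF1*, *TET3* and *HELLS* exchanged places among the WT lines, and their WT means of 16.1, 14.2 and 13.8 FPKM lay within the spread of the lines. *CDCA7* was the 7th in every WT line, just above *DNMT3A* and equal to it in the printed digits in WT replicate 2. In the KO lines *CDCA7* was the 5th or the 6th, above *TET2* in each of them. *HELLS* thus outnumbered its activator *CDCA7* in every library, with a ratio of *CDCA7* to *HELLS* of 0.276, 0.314 and 0.359 in WT and 0.676, 0.438 and 0.668 in KO. The ratio was higher in all KO lines, by 1.88 times on the means.

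The spread within groups differed among the genes. On the log2 scale, the SD of *CDCA7L* within groups was above that of 93.8% of the tested genes, and those of *UHRF1* (89.9%), *CDCA7* (86.6%) and *DNMT1* (82.9%) were also in the upper range. Those of *TET2* (22.6%) and *TET3* (3.20%) were in the lower range. The highest to lowest ratio within WT was 2.36 for *UHRF1* and 2.07 for *DNMT1*, but 1.11 for *TET3*. WT replicate 2 was the lowest and KO replicate 3 the highest library for all 5 genes that were higher in KO. WT replicate 2 is also the library with the raised *DCN* and *CDH5* values, whose part in the levels of the 5 genes was not tested. Without it the differences were 1.0 for *CDCA7L*, 0.79 for *UHRF1* and 0.63 for *DNMT1*, the lowest of any library left out, and 1.46 for *CDCA7* and 0.65 for *HELLS*. Over the 6 libraries, which share this contrast, *CDCA7L* and *UHRF1* had a Pearson r of 1.0, and 0.99 after the group means were removed. *UHRF1* and *DNMT1* had 0.98 and 0.95, and *DNMT3A* and *DNMT3B* 0.75 and 0.90. These correlations describe 6 points only.

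Maintenance of methylation follows the replication fork, and the levels were therefore set beside a list of 34 S phase genes and a list of 26 genes of G2 and mitosis. All 34 S phase genes had a higher mean in KO, with a median log2 difference of 0.95 against 0.09 over all tested genes, and 32 of them lay wholly above WT. Of all 12241 tested genes, 7420 were higher and 4821 lower in KO, with 18.3% wholly above and 5.77% wholly below WT. The largest were *MCM6* (1.56), *CDC45* (1.55), *CHAF1B* (1.46), *CDC6* (1.41) and *GINS2* (1.36), which load or drive the replicative helicase or assemble chromatin behind it. None of the 34 passed the test over all genes. In G2 and mitosis, 9 of 26 genes were higher and 17 lower, with a median of -0.05, 1 gene wholly above and 1 wholly below WT. The most abundant of them, *TOP2A*, which untangles DNA before division, was at 378 ± 46.5 (WT) and 375 ± 41.3 FPKM (KO).

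The S phase list moved with the same libraries as the maintenance genes. Its median deviation from the WT mean was 0.08, -0.41 and 0.34 in WT and 0.77, 0.68 and 1.41 in KO, again lowest in WT replicate 2 and highest in KO replicate 3. In G2 and mitosis the medians of the KO lines lay between -0.06 and -0.03, within the WT range of -0.32 to 0.17. The part of a difference in cell cycle phase in the values of the 5 genes was not tested.

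**Figure D3:**
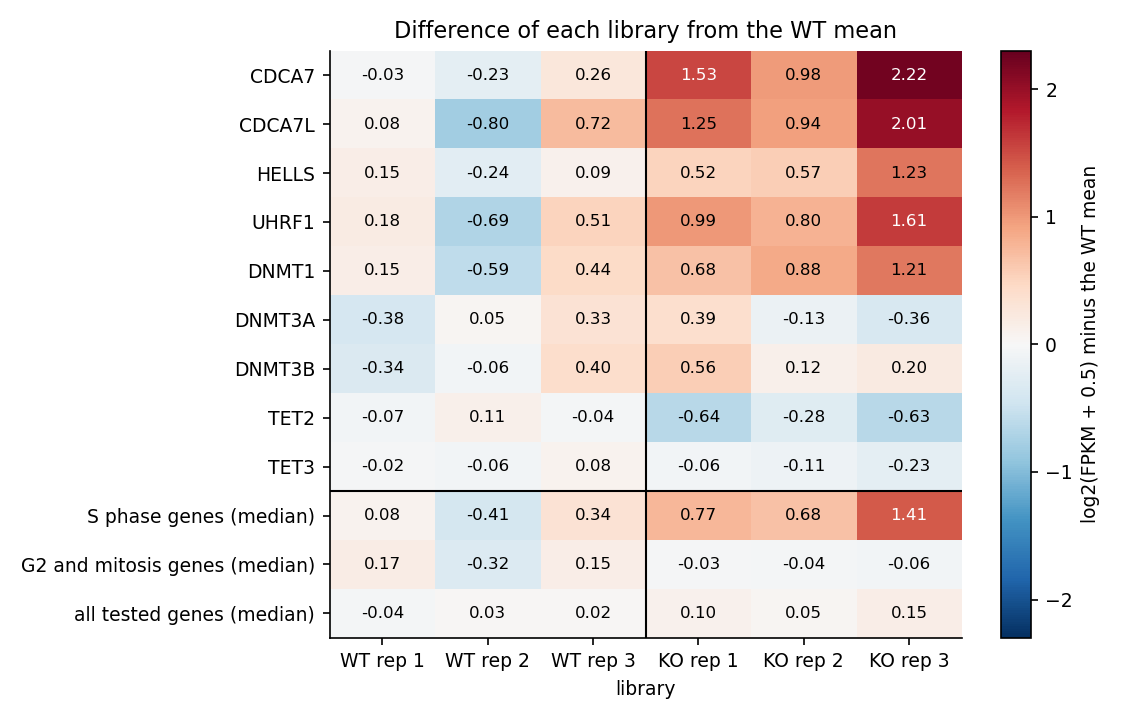
Heatmap of the 9 tested genes (rows) in each library (columns), with colour and printed value giving log2(FPKM + 0.5) minus the WT mean of the gene, and rows for the medians of the S phase genes, the G2 and mitosis genes and all tested genes. CDCA7, CDCA7L, UHRF1, DNMT1, HELLS and the S phase median (0.77, 0.68 and 1.41 in KO) are lowest in WT replicate 2 and highest in KO replicate 3, while the G2 and mitosis median stays between -0.06 and -0.03 in KO.

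Set against this list, *CDCA7* had a larger difference than each of the 34 S phase genes, at 1.58 (SE 0.31). The margin was small beside the errors, with *MCM6* at 1.56 (SE 0.40) and *CDC45* at 1.55 (SE 0.41). Since *CDCA7* and the list were chosen with this contrast known, nothing is read from its rank. Larger values than that of *CDCA7L* were seen in 4 of the 34, than that of *UHRF1* in 8, than that of *DNMT1* in 20 and than that of *HELLS* in 29. *CDCA7* minus the S phase median was -0.11, 0.19 and -0.08 in the WT lines and 0.76, 0.29 and 0.81 in the KO lines. The groups thus remained apart for *CDCA7*, with KO replicate 2 close to WT replicate 2. For *CDCA7L*, *UHRF1*, *DNMT1* and *HELLS* the same difference overlapped between the groups.

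Ratios to *PCNA*, the sliding clamp of the replication fork, are given for each library as a description, since *PCNA* is itself among the S phase genes. The ratio of *CDCA7* to *PCNA* was 0.0279, 0.0343 and 0.0274 in WT and 0.0561, 0.0371 and 0.0576 in KO, without overlap. That of *DNMT1* was 0.299 ± 0.0256 in WT and 0.296 ± 0.0330 in KO, and that of *HELLS* was 0.0954 ± 0.0170 and 0.0847 ± 0.00161. Relative to *PCNA*, these 2 maintenance genes overlapped between the groups, as did *UHRF1* and *CDCA7L*. The ratio of *UHRF1* to *DNMT1* was 0.359, 0.323 and 0.368 in WT and 0.439, 0.334 and 0.469 in KO, also overlapping.

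**Figure D4:**
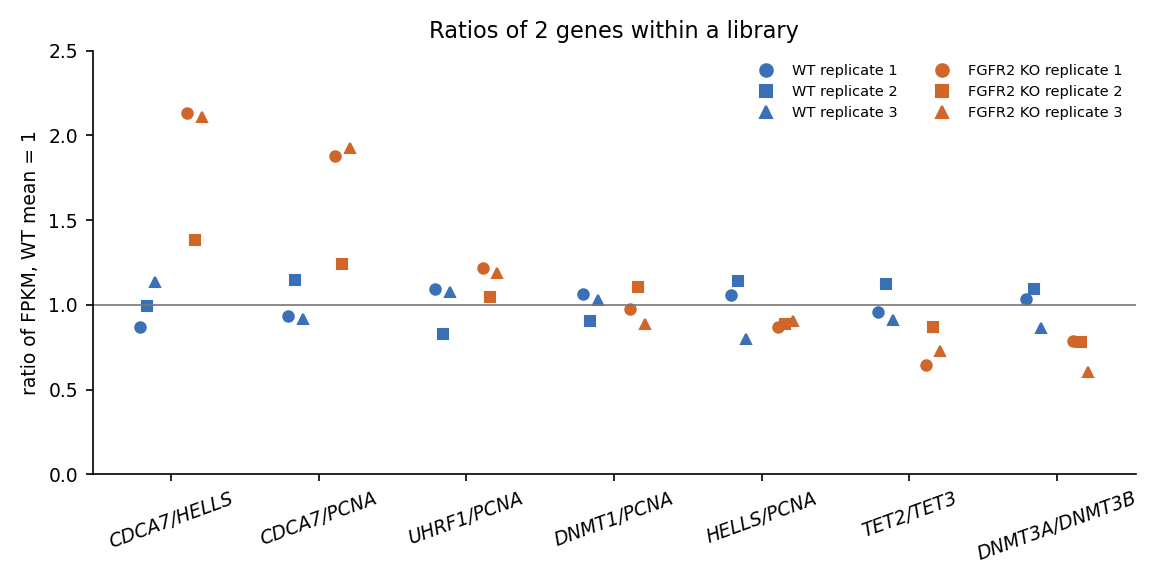
Ratios of FPKM between pairs of genes in each WT and FGFR2 KO line (points), each divided by its WT mean so that 1 on the y axis is the WT mean. CDCA7 over HELLS (0.276 to 0.359 in WT and 0.438 to 0.676 in KO before this division) and CDCA7 over PCNA separate the groups, while DNMT1 over PCNA and HELLS over PCNA overlap, and TET2 over TET3 is lower in all KO lines.

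Among 16 partners of maintenance, which recruit or modify the members or act with them at the fork, 15 were tested and 0 passed the test over all genes. Of these, 14 had a higher and 1 a lower mean in KO, with a median log2 difference of 0.31, and 7 lay wholly above WT. Of all 12241 tested genes, 7420 were higher in KO and 18.3% lay wholly above WT. *PCNA* had a difference of 0.95 (SE 0.27) and means of 150 ± 43.1 (WT) and 287 ± 80.8 FPKM (KO), and is also among the S phase genes above. *LIG1*, the ligase that joins Okazaki fragments and binds UHRF1, had 0.52 (SE 0.18). *ZBTB24*, the transcription factor that activates *CDCA7* and the remaining gene of the ICF group, had 1.5, 1.16 and 1.84 FPKM in WT and 2.06, 1.90 and 3.07 FPKM in KO. It was chosen after its values were seen, and its difference was 0.50 (SE 0.24). Its level was low throughout, and the groups did not overlap.

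The readers of methylated CpG differed in both directions. Of 10 tested genes, 3 were higher and 7 lower, with a median of -0.14. *MBD3*, a subunit of the NuRD deacetylase complex, was wholly above WT, with means of 20.6 ± 2.14 (WT) and 35.4 ± 11.9 FPKM (KO), a difference of 0.72 (SE 0.23). Of 15 tested genes that act with the TET enzymes or excise oxidized bases, 9 were higher and 6 lower, with a median of 0.02. *NEIL2*, a DNA glycosylase, was wholly above WT, with means of 0.789 ± 0.121 (WT) and 2.05 ± 0.868 FPKM (KO), a difference of 0.94 (SE 0.28). No gene of either list passed the test over all genes.

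The genes whose pattern was most like that of *CDCA7* were found by Pearson's r of log2(FPKM + 0.5) over the 6 libraries. They were *ADCY3* (0.999), *CDK5R1* (0.999), *DBR1* (0.997), *PMS1* (0.997) and *BOP1* (0.997). After removal of the group means they were *ADCY3* (0.999), *SSX2IP* (0.998), *CCND3* (0.997), *FANCB* (0.997) and *LRR1* (0.997). With 6 points such values were common, since 1639 of 12240 genes (13.4%) had an r of at least 0.9 and 578 had the same rank order as *CDCA7*. *HELLS* had 0.951 and ranked 772, followed by *CDCA7L* (0.932), *UHRF1* (0.925) and *DNMT1* (0.873), and *TET2* had -0.960. Of the 34 S phase genes, 8 were among the 500 genes most like *CDCA7*.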

How the data were processed

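The deposited FPKM values were made by the authors: reads were trimmed with fastp 0.20.0 and quantified with kallisto 0.46.1 on GRCh38 transcripts (GENCODE release 37), as the submitters' processing notes and methods state. Gene names were taken from GENCODE release 44. Of 21493 rows, 18 Y copies of pseudoautosomal genes, equal to the X copies, were left out. The members and all gene lists were chosen with earlier results of these data known.

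Genes averaging 0.5 FPKM or more were tested as log2(FPKM + 0.5) with limma 3.58.1 in R 4.3.3 (trend, Benjamini-Hochberg adjustment over 12241 genes), KO against WT, and calls needed an adjusted p up to 0.05 together with a log2 difference of 0.5 or more in size. The script was tested on simulated data. An exact rank test of 3 against 3 lines, which was not run, cannot go below a two-sided p of 0.1. The p-values of limma have no such floor. The files give no read counts. Of 4974 low values of single-transcript genes, 70.5% were whole fragments within 0.05 (10% by chance), which gave the estimated depths but not counts, and no count model was run. The basis of gene length in FPKM is not given in the sources used here, and it bears on levels compared between genes. Protein sequences were not used here.

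Genes named from the lists were those with no overlap between groups and an absolute log2 difference of at least 0.5 (at most the 5 largest, or the most abundant gene of a list with none), and the 5 genes most like *CDCA7*. A gene that this rule names is not reported here. Alternatives were the pseudocount, filter, scaling, trend, library weights, chromosome medians, replicate block and leaving out each library.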

Additional observations from a re-analysis of the deposited data

How the results depend on the processing

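The 5 genes higher in every KO line kept their direction and separation under each scaling tried, and leaving out single libraries gave 1.26 to 1.87 (*CDCA7*), 1.0 to 1.76 (*CDCA7L*), 0.54 to 0.90 (*HELLS*), 0.79 to 1.39 (*UHRF1*), 0.63 to 1.14 (*DNMT1*) and -0.63 to -0.45 (*TET2*). Library weights gave 1396 called genes against 0, and log2 differences of 0.47 for *DNMT3A* and 0.68 for *DNMT3B*. WT replicate 1 then had a weight of 10.3. *TET3* moved to -0.23 under median-of-ratios scaling, -0.24 under quantile normalization and -0.26 with chromosome medians removed, and TPM or nuclear scaling left 1 gene wholly below WT. In the same order of the first 3 settings, the median of the methyl-CpG readers was -0.24, -0.26 and -0.25. That of the demethylation partners was -0.07 and -0.08 under median-of-ratios and quantile scaling and 0.14 with library weights, and that of the methyl donor cycle was 0.16 with no filter. Leaving out single libraries gave medians of -0.20 to -0.08 (methyl-CpG readers), -0.02 to 0.11 (demethylation partners), 0.23 to 0.46 (methyl donor cycle) and -0.19 to 0.01 (G2 and mitosis). The causes were not tested.

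Replicate numbers are shared by the groups, but their deviations correlated at -0.206, 0.225 and 0.049 for numbers 1, 2 and 3, and not every line correlated best with its own number. With the replicate block 0 genes were called (smallest adjusted p 0.0972 with limma, 1762 genes at an unadjusted p under 0.05 and the fold limit), and *CDCA7* stayed at 1.58. Median-of-ratios scaling changed the split at that unadjusted limit from 1251 higher and 285 lower to 818 and 488. The background of non-overlapping genes also depended on scaling, with 2245 wholly above and 706 wholly below WT in the main setting. These counts were 1515 and 1290 under median-of-ratios scaling, 1577 and 1281 under quantile normalization, and 2462 and 558 under TPM scaling. Leaving out 1 library called 0 genes each time, with 630 genes at the unadjusted limit without KO replicate 3 and 2256 without KO replicate 2. The median of all genes ranged from -0.02 to 0.13 over these settings.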

Other observations

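The methyl donor cycle, which supplies S-adenosylmethionine to the methyltransferases, had 9 of 12 genes tested, 6 higher and 3 lower in KO, with 5 wholly above and 2 wholly below WT and a median log2 difference of 0.40. Over all tested genes 18.3% lay wholly above and 5.77% wholly below WT, and the median was 0.23 without KO replicate 3 and 0.25 without WT replicate 2. *MAT2A*, which makes the donor, averaged 82.6 ± 10.2 (WT) and 139 ± 34.5 FPKM (KO) (0.73, SE 0.20). *AHCY*, which clears the product S-adenosylhomocysteine, had 142 ± 15.1 and 210 ± 75.6 FPKM (0.51, SE 0.24), and *MTAP*, of methionine salvage, 12.4 ± 0.317 and 19.0 ± 6.75 FPKM (0.54, SE 0.23). None of the 9 passed the limma test over all genes.

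Of 27 tested SNF2 family ATPases other than *HELLS*, 16 were higher and 11 lower, with a median of 0.12. In this list 10 lay wholly above and 1 wholly below WT, against 18.3% and 5.77% of all tested genes. Those wholly above WT with the largest differences were *RAD54L* (1.0) and *RAD54B* (0.89), which act in homologous recombination, *ERCC6L* (0.63), a helicase of mitotic chromosomes, and *TTF2* (0.56). *HELLS*, at 0.77, lay above the median of the list and within the range of these named genes, which were picked for their large differences.

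Germline genes that DNA methylation keeps silent in somatic cells were low. Of 24 such genes 10 were listed at 0 in all libraries, and only *HORMAD1* passed the filter, with 2.66 ± 0.457 (WT) and 2.12 ± 0.18 FPKM (KO), overlapping. The list summed to 2.48 to 3.20 FPKM in WT and 2.13 to 2.52 FPKM in KO. DNA methylation itself was not measured in these libraries.

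Some markers of other cell types were expressed at levels like those of the genes described here, with WT means of 21.4 FPKM for *VWF*, 14.5 FPKM for *CD68* and 13.1 FPKM for *COL1A1*. Fibroblast markers summed to 7.99 to 33.2 FPKM in WT, highest in replicate 2 through *DCN*, and 6.92 to 12.6 FPKM in KO, melanocyte markers to 3.06 to 5.58 and 1.24 to 4.86 FPKM, leukocyte markers to 11.7 to 20.7 and 4.5 to 11 FPKM, and endothelial markers to 18.1 to 27.2 and 5.82 to 17.5 FPKM. *SOX10* and *KDR* were listed at 0 in all libraries. Of the 6 melanocyte markers, 4 were under the filter, *SOX10* included. The others were *PMEL*, with 0.697 to 2.43 FPKM, and *MITF*, with 0.529 to 4.01 FPKM. Of the 4 endothelial markers, 2 were under the filter, *KDR* included. *CD68* and *VWF* were wholly lower in KO, as were 5.77% of all tested genes. The part of these markers in the results was not tested.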
